A study of Mus musculus with 12 samples.

Results

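Retention of the shortest mouse introns was followed through siRNA knockdown of Sap30bp, the gene of a splicing protein, and its induced expression from a cDNA. An intron belonged to the set when the authors' inclusion table placed its length under 100 nt, gave a value in all 12 libraries, and the mean of those values lay between 2% and 98%. Of 160022 introns in the table, 9206 were shorter than 100 nt and 4362 of these had 12 values. Among those, 2401 averaged under 2% and 3 over 98%, which left 1958 introns of 65 to 99 nt in 1110 genes, out of 17096 introns and 28980 splicing events of all kinds that met the same limits on values. Because the mean over all 12 libraries chose the introns, 428 of them with a control mean under 2% entered only through their level in other libraries, and values are also given for the 1530 with a control mean of at least 2%.

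The cells were N2a, a mouse neuroblastoma line, that carried the rtTA activator. A FLAG-tagged Sap30bp cDNA, switched on by doxycycline, had been placed at a Flp-In site. The cDNA of the withoutEx3 line lacks exon 3 of Sap30bp and that of the withEx3 line includes this exon. Each line was sampled as rescue (siRNA against Sap30bp with doxycycline), knockdown (the same siRNA without doxycycline) and control (a non-targeting siRNA pool), with 2 biological replicates in each of the 6 groups. Doxycycline was added or withheld at the medium change 24 hours after transfection, wells of 1 condition were pooled at harvest at 72 hours, and stranded polyA libraries took 1000 ng of RNA and had inserts of 540 nt on average. Doxycycline was never combined with the control siRNA, so the drug and the induced protein cannot be told apart, and neither can the isoform and the line that carries it. A single siRNA sequence was used.

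In the authors' deposited expression table, which holds 1 RPKM value per group, Sap30bp stood at 196 RPKM in rescue, 21.7 RPKM in knockdown and 40.03 RPKM in control cells of the withoutEx3 line. The withEx3 line had 141 RPKM in rescue, 18.6 RPKM in knockdown and 33.6 RPKM in control cells. The authors' FDR for knockdown against control was 0.0674 for the withoutEx3 line and 0.0684 for the other, and the fall of the targeted transcript missed a threshold of 0.05 in both. Of 14 neuronal and neuroblastoma markers, 11 reached 1 RPKM, led by Tubb3, while Nefl, Nefm and Th stayed below it. Their summed level was 1389 RPKM in knockdown and 1341 RPKM in control cells of the withoutEx3 line, and 1373 RPKM in knockdown and 1062 RPKM in control cells of the withEx3 line. By the authors' FDR, 1 of them was higher in knockdown in both lines, Phox2a, a transcription factor gene of noradrenergic neurons (FDR 0.0175 in the withoutEx3 and 9.93e-05 in the withEx3 line), and 3 others passed as higher in the withEx3 line, Gap43 (FDR 7.51e-05), Hand2 (FDR 0.00447) and Dbh (FDR 6.08e-08). Of 10 fibroblast markers, 2 did, Pdgfra and Fbln1, and Fbln1 made most of a summed level of 57.8 to 159 RPKM that was highest in both control groups. Of 10 glial and immune markers, 4 did, with a summed level of 9.14 to 11.7 RPKM. In bulk RNA, fewer cells of a type and less RNA per cell cannot be told apart, and the part of these markers in the retention values was not tested. No read numbers accompany the retention percentages, so the depth behind each value is unknown.

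Introns of this size are close to the smallest that the mammalian spliceosome handles. The 5′ splice site, the branch point and the polypyrimidine tract with the terminal AG then lie close together, and the pair of splice sites is recognised across the intron (intron definition). SAP30BP is known, from work in human cells, to act with RBM17 (SPF45) in the splicing of a subset of short introns. An intron that stays in a polyadenylated transcript can add a premature stop codon, hold the transcript in the nucleus, or both.

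Nearly all matched introns lay in coding sequence. Matched by the lengths of the intron and both flanking exons, 1817 (92.8%) had 1 counterpart in GENCODE M21, and of these 1798 (99%) lay between coding exon parts, 8 in a UTR, 98 at the last and 12 at the first intron position. Median length was 84 nt (quartiles 79 and 89), and the flanking exons had medians of 115 nt upstream and 122 nt downstream. Length was a multiple of 3 for 646 introns (33.0%). In 718 genes there was 1 such intron, in 202 genes 2 and in 190 genes 3 or more, with 11 in Edc4, the scaffold of the decapping machinery, as the most. Intron sequence could be read for 564 introns (28.8%), those that a GENCODE M21 transcript retains. All 564 ended in AG, 562 began with GT and 2 with GC. With under 80% of introns covered, no comparison of sequence features over the whole set was made.

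Shown first are the 6 introns with the largest retention rises on knockdown among the named introns for which a sequence could be read. They are written 5′ to 3′ on the transcribed strand. In capitals are the first 6 bases (the intronic part of the 5′ splice site) and the last 20 bases, which include the terminal AG. In GRCm38 the Ilvbl introns lie at chr10:78583535-78583629 and chr10:78583984-78584069, both on the plus strand, and the Adck5 intron at chr15:76593860-76593937, also on the plus strand. On the minus strand are the Mfsd10 intron at chr5:34634514-34634590, the Cpsf1 intron at chr15:76596350-76596415 and the Dpp7 intron at chr2:25355722-25355813.
Ilvbl 95 nt: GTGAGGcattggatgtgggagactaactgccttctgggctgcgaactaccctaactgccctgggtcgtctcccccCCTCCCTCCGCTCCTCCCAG
Mfsd10 77 nt: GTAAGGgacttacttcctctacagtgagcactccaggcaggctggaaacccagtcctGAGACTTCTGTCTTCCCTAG
Cpsf1 66 nt: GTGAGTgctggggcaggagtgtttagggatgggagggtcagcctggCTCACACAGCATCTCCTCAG
Adck5 78 nt: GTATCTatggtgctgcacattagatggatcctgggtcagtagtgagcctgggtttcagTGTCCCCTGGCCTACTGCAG
Dpp7 92 nt: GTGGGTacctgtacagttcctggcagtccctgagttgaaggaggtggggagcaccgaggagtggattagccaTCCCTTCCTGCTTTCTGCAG
Ilvbl 86 nt: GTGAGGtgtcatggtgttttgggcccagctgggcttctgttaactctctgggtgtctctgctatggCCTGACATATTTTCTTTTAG

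For each of these, the second set holds, among introns whose sequence could be read, the one nearest in length with the smallest change on knockdown, in the same order. The Timeless intron lies at chr10:128240495-128240589 and the Ncaph2 intron at chr15:89370309-89370394, both on the plus strand of GRCm38. On the minus strand are the introns of Slc25a39 at chr11:102403714-102403790, Mast1 at chr8:84925343-84925408, Rfc3 at chr5:151644712-151644789 and Vps28 at chr15:76622563-76622654. In the first set the difference between knockdown and control was between 29.9 and 43.8 percentage points. In the second it was between -0.47 and 0.79 points for 5 introns and 8.55 points for the Mast1 intron, the least changed of that length with a sequence. GC content was 48.8% to 63.2% in the first set and 44.9% to 67.5% in the second. Of the last 20 bases, 13 to 17 were pyrimidines in the first set and 10 to 14 in the second, and the Ncaph2 intron is 1 of the 2 that begin with GC. Both ranges overlap, and 6 introns a set were picked by their values, so these are descriptions of the printed introns only.
Timeless 95 nt: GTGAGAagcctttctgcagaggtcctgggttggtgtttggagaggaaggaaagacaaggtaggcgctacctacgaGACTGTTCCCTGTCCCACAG
Slc25a39 77 nt: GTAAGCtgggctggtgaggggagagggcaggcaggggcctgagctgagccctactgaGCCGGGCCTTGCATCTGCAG
Mast1 66 nt: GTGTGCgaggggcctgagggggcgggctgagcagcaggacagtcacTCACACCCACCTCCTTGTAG
Rfc3 78 nt: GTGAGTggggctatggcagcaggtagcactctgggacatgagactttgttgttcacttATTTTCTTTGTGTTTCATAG
Vps28 92 nt: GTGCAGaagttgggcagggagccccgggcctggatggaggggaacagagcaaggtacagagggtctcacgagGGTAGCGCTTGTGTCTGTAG
Ncaph2 86 nt: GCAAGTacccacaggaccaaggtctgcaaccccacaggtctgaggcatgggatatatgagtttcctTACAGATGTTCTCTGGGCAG

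Knockdown of Sap30bp raised retention across the set in both lines. Of the 1958 introns, 149 in 110 genes were retained more in knockdown than in control cells as the mean of both lines (7.61%), and 0 were called retained less. Over all 28980 events, 1.00% were called higher and 0.483% lower by the same rule, which asks for an adjusted p under 0.05 in limma and a difference of at least 15 percentage points. At an unadjusted p under 0.05, 961 of the introns were higher and 4 lower in knockdown, against 12.0% of all events higher and 7.16% lower. The median difference over the set was 3.52 points (quartiles 1.501 and 7.49), with 1790 introns (91.4%) above 0, while over all events it was 0.39 points with 56.9% above 0. For the 1530 introns with a control mean of at least 2%, 142 were called (9.28%) and the median difference was 3.73 points. Of the 1530, 1362 (89.0%) had a difference above 0, and 690 were higher and 4 lower at an unadjusted p under 0.05. The count of 149 fell to 62 without replicate 1 of the control of either line, and to 78 without replicate 2 of the withoutEx3 knockdown. With introns outside the limits of 2% and 98% in the fit, 22 of 4362 introns under 100 nt were called and their median difference was 0.86 points.

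Library medians place the size of this change beside the spread of replicates. In the withoutEx3 line the median retention was 3.33% and 5.19% in rescue, 5.63% and 8.98% in knockdown, and 2.99% and 4.27% in control libraries (replicates 1 and 2). In the withEx3 line it was 5.36% and 5.88% in rescue, 6.46% and 8.19% in knockdown, and 2.94% and 4.08% in control libraries. Both knockdown libraries of a line lay above both of its control libraries. Replicate 2 was the higher of the pair in each of the 6 groups, and the same held for introns of 200 nt and over. The share of introns retained at 20% or more was 11.7% and 20.7% in knockdown against 3.78% and 5.87% in control libraries of the withoutEx3 line. It was 14.4% and 18.7% in knockdown against 3.83% and 5.26% in control libraries of the withEx3 line.

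**Figure D1:**
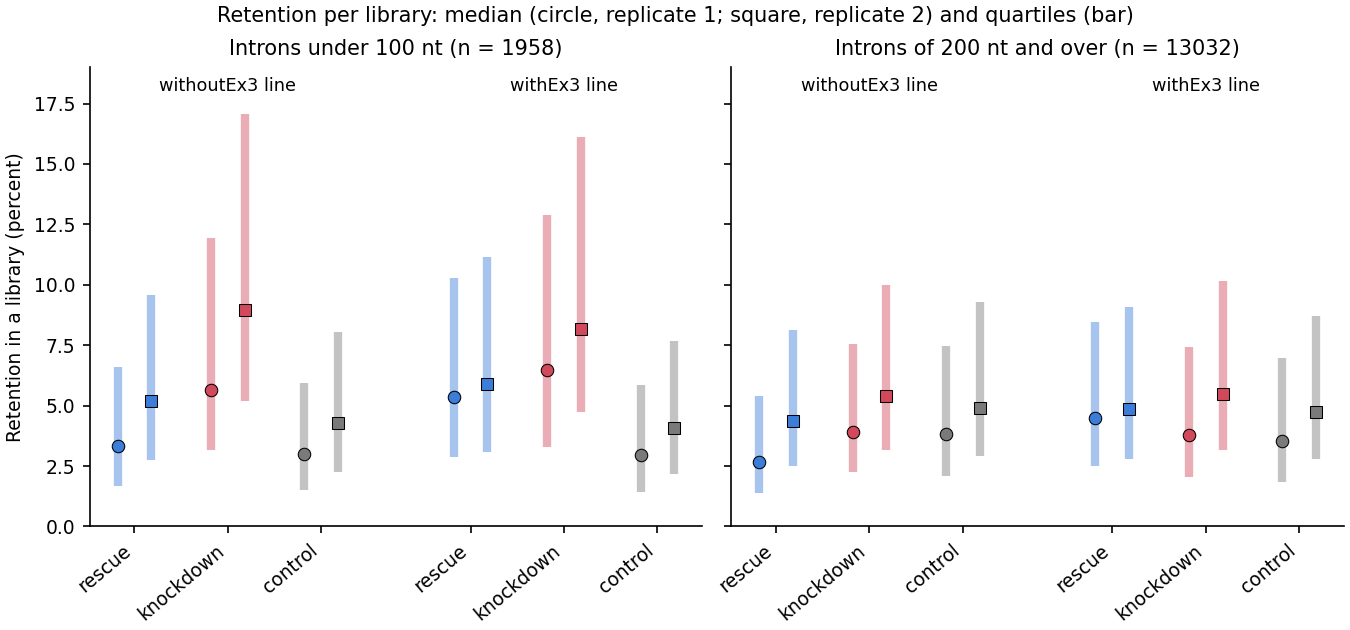
Retention in percent (y axis) per library for introns under 100 nt (left panel) and of 200 nt and over (right panel), by line and condition on the x axis. Circles and squares are the library medians of replicates 1 and 2 and bars span the quartiles over introns. In the left panel the 4 knockdown medians (5.63% to 8.98%) lie above the 4 control medians (2.94% to 4.27%), whereas in the right panel knockdown and control medians overlap.

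Within single introns the same order held in many. In 863 introns (44.1%) both knockdown replicates exceeded both control replicates in both lines, against 11.0% of all events. In 6 introns (0.306%) both fell below, against 6.99% of all events. The 428 introns with a control mean under 2% were not left out here, and all 428 had a positive mean difference. Their entry required higher levels outside control, so the share of 44.1% can follow in part from the choice of introns. The differences of the lines ran together across the 1958 introns, with Pearson's r of 0.813 and Spearman's rho of 0.713. These points share libraries and genes, so no p-value is attached. Tested in each line alone, with 2 libraries a side, 2 introns (0.102%) were called higher in the withoutEx3 line, against 0.0173% of all events. In the withEx3 line 28 (1.43%) were called higher, against 0.197% of all events. Leaving out 1 library moved these counts to between 0 and 105 in the withoutEx3 line, with 105 without replicate 1 of its knockdown, and to between 0 and 54 in the withEx3 line, with 54 without replicate 2 of the withoutEx3 knockdown. With the replicate number as a block the counts were 44 in the withoutEx3 and 94 in the withEx3 line, though the labels do not say what a number stands for. The medians of the lines were 3.53 points in the withoutEx3 and 3.51 points in the withEx3 line. The difference of the knockdown effect between lines was called for 0 introns and 0 of all events. At an unadjusted p under 0.05, 16 introns were higher and 24 lower, against 1.51% and 1.69% of all events.

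The 12 introns with the largest called differences belong to genes of varied function. The first was the 95-nt intron of Ilvbl (chr10:78046280-78046374 in mm9, the build of the authors' table), a gene of an acetolactate synthase-like enzyme. Its retention was 44.5% and 59.6% in rescue, 64.6% and 84.3% in knockdown, and 20% and 33.8% in control libraries of the withoutEx3 line. In the withEx3 line it was 56.7% and 69.2% in rescue, 68.8% and 61.5% in knockdown, and 19.3% and 30.7% in control libraries. Knockdown exceeded control by 43.8 ± 5.68 points (SE, adjusted p = 0.00451), and rescue overlapped knockdown in the withEx3 line alone.

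The 77-nt intron of Mfsd10 (mm9 chr5:34977163-34977239), a transporter of the major facilitator family, was mostly spliced in control cells. It was retained at 20% and 21.6% in rescue, 41.9% and 52.6% in knockdown, and 1.20% and 15.4% in control libraries of the withoutEx3 line. The withEx3 line had 36.6% and 34.0% in rescue, 45% and 55.4% in knockdown, and 3.37% and 9.64% in control libraries. The 3 conditions did not overlap in either line, and knockdown exceeded control by 41.3 ± 4.18 points (adjusted p = 0.00274).

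Plxna3 encodes a receptor for semaphorins, and its 85-nt intron (mm9 chrX:71581531-71581615) was retained at 20% and 36.7% in rescue, 30% and 60% in knockdown, and 7.09% and 11.4% in control libraries of the withoutEx3 line. Values in the withEx3 line were 18.9% and 21.7% in rescue, 41.4% and 60% in knockdown, and 5.19% and 7.06% in control libraries. Knockdown lay 40.2 ± 6.48 points above control (adjusted p = 0.00992), and the knockdown replicates of the withoutEx3 line lay far apart.

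Dpp7 encodes a dipeptidyl peptidase of the lysosome. Its 70-nt intron (mm9 chr2:25210343-25210412) stood at 19.2% and 24.2% in rescue, 34.3% and 54.1% in knockdown, and 7.14% and 14.6% in control libraries of the withoutEx3 line. Corresponding values of the withEx3 line were 15.9% and 21.4% in rescue, 48.8% and 58.6% in knockdown, and 4.41% and 14.3% in control libraries. Rescue lay between knockdown and control without overlap in both lines, and knockdown exceeded control by 38.8 ± 4.74 points (adjusted p = 0.00399).

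Cpsf1 encodes a subunit of the complex that recognises the polyadenylation signal. Its 66-nt intron (mm9 chr15:76426780-76426845), 1 of 4 of that length, was retained at 18.8% and 28.8% in rescue, 39.6% and 52.1% in knockdown, and 8.61% and 20.1% in control libraries of the withoutEx3 line. The withEx3 line had 42.6% and 38.4% in rescue, 64.2% and 52.9% in knockdown, and 16.8% and 13.7% in control libraries. Knockdown exceeded control by 37.4 ± 4.41 points (adjusted p = 0.00329), and rescue was below knockdown without overlap in both lines.

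Rec8 encodes a meiotic cohesin subunit, and its 76-nt intron (mm9 chr14:56241555-56241630) had the closest replicates of the 12 in knockdown. It was retained at 11.3% and 21.2% in rescue, 44.9% and 44.5% in knockdown, and 10.7% and 9.77% in control libraries of the withoutEx3 line. In the withEx3 line it was retained at 14.0% and 20.8% in rescue, 42.6% and 43.2% in knockdown, and 6.25% and 9.68% in control libraries. The difference of 34.7 ± 3.12 points (adjusted p = 0.00112) was also called in each line alone, which held for no other of the 1958 introns.

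The other introns among the 12 had knockdown differences between 34.3 and 40.5 points. They lie in Mst1 (78 nt), the gene of a secreted growth factor, Rsbn1l (88 nt), the calmodulin-regulated kinase gene Dapk1 (86 nt), Dopey1 (79 nt), Adck5 (78 nt) and Ercc2 (80 nt), whose product is a helicase of the repair and transcription factor TFIIH. The Mst1 intron carried the largest error of these, 40.5 ± 8.78 points (adjusted p = 0.0305), with 21.1% and 63.3% in the 2 rescue libraries of the withoutEx3 line.

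**Figure D2:**
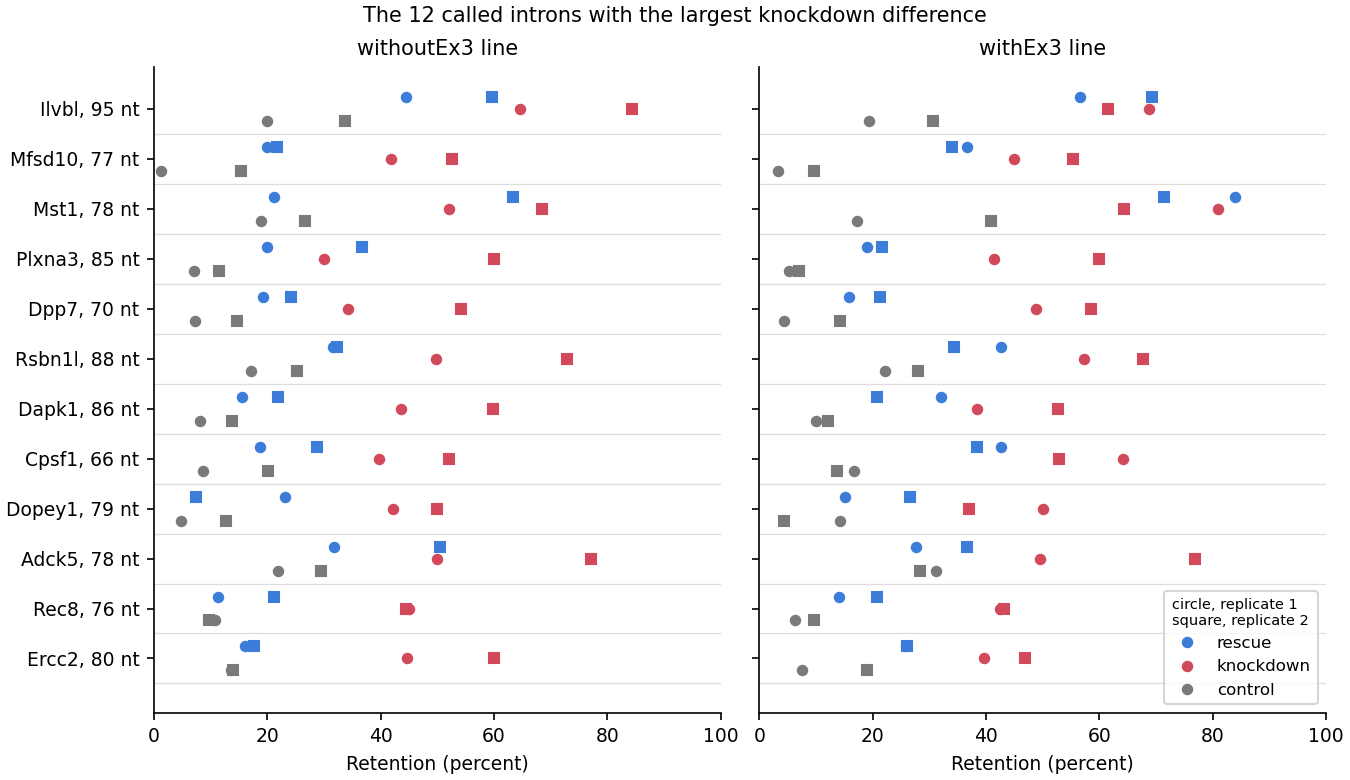
Retention in percent (x axis) of the 12 introns with the largest called knockdown differences, 1 row per intron named by gene and length, in the withoutEx3 (left) and withEx3 line (right). Each point is 1 library, with colour for condition and shape for replicate. Knockdown points lie right of control points in every row of both panels, and most rescue points lie between them.

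Introns called in 1 line were few. Birc2, which encodes a ubiquitin ligase that inhibits apoptosis, had a 77-nt intron retained at 12.5% and 13.7% in rescue, 36% and 32% in knockdown, and 2.13% and 4.44% in control libraries of the withoutEx3 line. In the withEx3 line it was retained at 15% and 12.5% in rescue, 16.3% and 16.7% in knockdown, and 10.6% and 13.0% in control libraries. Its knockdown difference was 30.7 points in the withoutEx3 line (adjusted p = 0.0163) and 4.60 points in the withEx3 line (adjusted p = 0.586). The test of the difference between the lines, 26.1 ± 4.57 points, had an adjusted p of 1.00, so a line difference was not shown. Among introns called in the withEx3 line alone were the 78-nt and 86-nt introns of Map4k2, a kinase gene of the stress-activated pathway, and an 88-nt intron of Ppp1r16a, a gene of a regulatory subunit of protein phosphatase 1. Their differences in that line were 43.9, 35.4 and 38.3 points, against 22.3, 20.6 and 16.2 points in the withoutEx3 line, with an adjusted p of 1.00 for each difference between lines.

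Several genes held more than 1 called intron, and most of these also held short introns with no called change. Of the 110 genes with a called intron, 74 had at least 2 introns in the set and 70 of those also held one that was not called. Called introns numbered 2 or more in 25 genes and 3 or more in 10. All 4 introns of Hirip3, whose product binds histones and the chaperone HIRA, were called, with differences of 15.2 to 23.1 points. All 3 of Lime1, the gene of a signalling adaptor of lymphocyte membranes, were called at 22.8 to 29.5 points. Cpsf1 had 4 of 10 called, the DNA helicase gene Recql4 4 of 10, Plxna3 4 of 9, the lipid transporter gene Abca7 3 of 10, Sbf1, a gene of the myotubularin family, 3 of 9, Rec8 3 of 8, Ilvbl 3 of 5 and Dpp7 3 of 4. In Cpsf1, Recql4, Plxna3, Abca7, Rec8, Ilvbl and Dpp7 every intron of the set, called or not, had a positive difference, and in Sbf1 7 of 9 did. These genes were chosen by their called introns, and 91.4% of all 1958 introns had a positive difference. Among 257 pairs of neighbouring introns that share an exon, both were called in 12 pairs and 1 in 30, and the differences of the pair correlated with r = 0.4997 across pairs.

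The shortest introns of the set had the largest median differences. The median difference between knockdown and control was 8.93 points for the 27 introns of 65 to 69 nt, 6.01 points for the 138 of 70 to 74 nt and 5.23 points for the 411 of 75 to 79 nt. It was 3.48 points for the 500 of 80 to 84 nt, 2.73 points for the 410 of 85 to 89 nt, 2.46 points for the 273 of 90 to 94 nt and 2.58 points for the 199 of 95 to 99 nt. Called shares ran from 22.2% (6 of 27) at 65 to 69 nt through 10.7% (44 of 411) at 75 to 79 nt to 4.52% (9 of 199) at 95 to 99 nt. Beyond the length limit, 49 of 2106 introns of 100 to 199 nt were called higher (2.33%, median 1.93 points), and 56 of 13032 introns of 200 nt and over (0.430%, median 0.41 points). Across the 1958 introns, length and the knockdown difference had r = -0.217 and rho = -0.255. Just inside the limit, the 199 introns of 95 to 99 nt had a median of 2.58 points with 9 called. Just outside it, the 198 introns of 100 to 104 nt had a median of 2.63 points with 4 called (2.02%).

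**Figure D3:**
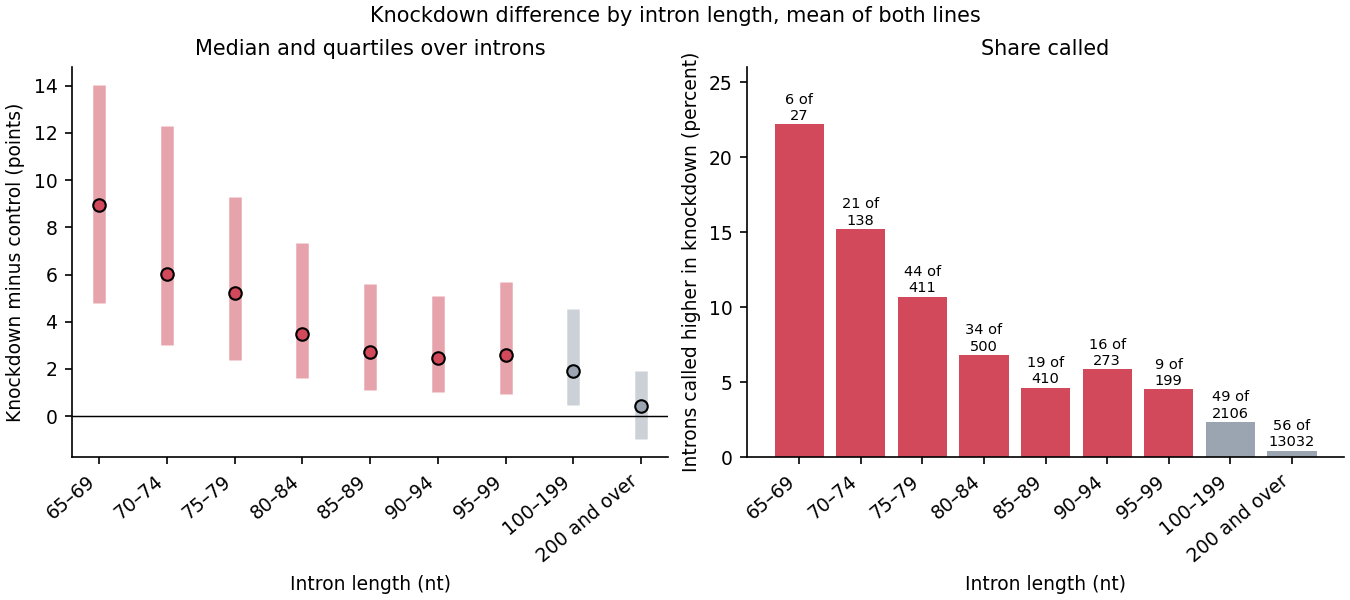
Knockdown minus control as the mean of both lines, by intron length in nt (x axis). The left panel gives the median (point) and quartiles (bar) of the difference in percentage points, and the right panel the percent of introns called higher, with counts above the bars. Red marks introns under 100 nt and grey longer ones, and the median is 8.93 points at 65 to 69 nt and 0.41 points at 200 nt and over.

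The 5 introns of 65 and 66 nt show the spread at the short end. The 66-nt intron of Ccdc101, a gene of a SAGA complex subunit, differed by 8.83 ± 1.94 points (adjusted p = 0.0321), below the 15 points asked for. The 65-nt intron of Scrib, which encodes a cell polarity scaffold, stood at 12.5% and 20.6% in knockdown against 8.43% and 10.5% in control libraries of the withoutEx3 line, and at 13.8% and 24.2% against 8.14% and 9.46% in the withEx3 line. Its difference of 8.63 ± 3.09 points did not pass (adjusted p = 0.155), whereas a 69-nt intron of the same gene did, at 21.2 ± 3.66 points (adjusted p = 0.0123). Of the other 66-nt introns, that of Mast1, a gene of a microtubule-associated kinase, differed by 8.55 ± 3.24 points (adjusted p = 0.18) and that of Fam38a by 3.59 ± 1.14 points (adjusted p = 0.111), and neither passed. The 66-nt Cpsf1 intron is described above.

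The share of called introns was higher where retention in control cells was higher. The called share was 1.64% (7 of 428) below a control mean of 2%, 3.59% (30 of 836) from 2% to under 5%, 13.0% (54 of 415) from 5% to under 10%, 18.8% (36 of 192) from 10% to under 20%, and 25.3% (22 of 87) at 20% and over. The rule asks for the same 15 points at every control level, and control values enter both measures. Their part in this order was not tested. Median differences were 3.06 points below a control mean of 2%, where the limit on the 12-library mean kept only introns that were higher in other libraries, and 2.57, 5.65, 8.61 and 11.7 points in the bins above. At the top of the scale the 5 introns with the highest control means, in Lenep, Prss41, Ncrna00085, 4930412O13Rik and Optn, were retained at 80.0% to 100% in control libraries and differed by -4.42 to 6.33 points, none past the threshold. At the bottom, introns of Golga1, Suz12, Tbc1d17, Wdr62 and Fbxo11 had 0% in at least 3 of the 4 control libraries. These could reach a mean of 2% only through knockdown or rescue libraries, so their higher levels there follow from the choice of introns.

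Called introns were found in genes of several processes, counted here over lists of host genes drawn up with earlier results of these data in view. Over all events 1.00% were called higher, and 7.61% of the set. List shares above these can follow from how the genes were chosen, so the shares of all lists are descriptions only. DNA replication and repair genes held 64 introns of the set in 21 genes, of which 18 in 9 genes were called (28.1%). Of these 18, Hirip3 and Recql4 held 4 each, Rec8 held 3 and Ercc2 held 2. The others lay in Pold1 and Pole, the catalytic subunits of the main replicative polymerases, Fancg of the Fanconi anaemia core complex, and the helicase genes Wrn and Rtel1. In Pold1 the 82-nt intron was retained at 21.01% and 27.7% in knockdown against 2.27% and 4.1% in control libraries of the withoutEx3 line, and at 22.7% and 18.5% against 1.60% and 2.56% in the withEx3 line, a difference of 19.8 ± 2.51 points (adjusted p = 0.00429).

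The list of 3′ end formation, Integrator and RNA decay held 43 introns in 11 genes, with 9 called in 4 genes (20.9%). These were Cpsf1, Edc4, Ints3, which encodes an Integrator subunit, and Skiv2l, which encodes the helicase that feeds RNA to the exosome. The 72-nt intron of Skiv2l was retained at 37.9% and 60.8% in knockdown against 14.6% and 21.7% in control libraries of the withoutEx3 line, and at 54.2% and 50.0% against 13.0% and 18.6% in the withEx3 line (33.7 ± 5.34 points, adjusted p = 0.00901). The 81-nt Ints3 intron was mostly retained in all groups, with 84.1% to 92.1% in knockdown and 68.99% to 71.1% in control libraries.

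Lysosomal genes held 18 introns with 4 called (22.2%), 3 of them in Dpp7. The rest lay in Gnptg, which encodes a subunit of the phosphotransferase that tags lysosomal enzymes. Genes of tRNA modification and charging held 41 with 5 called (12.2%), in Dus3l, Trmt2a, Mars and Sars2. Genes of axon guidance and cell adhesion held 38 with 6 called (15.8%), in Plxna3, Scrib and Mst1, the last of these a growth factor gene. Splicing factor genes held 21 introns with 1 called (4.76%), the 77-nt intron of Xab2, a gene of the spliceosome and of transcription-coupled repair, at 16.3 ± 3.87 points (adjusted p = 0.0438). None of the lists held a called fall.

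Longer introns of the same genes had smaller differences. In the 1000 genes whose short introns were not called, the median difference was 2.96 points for the short and 1.29 points for 3619 longer introns of 100 nt and over. In 909 of these genes with introns of both kinds, the median of the short introns exceeded that of the longer introns in 656 (72.2%). The 110 genes with a called intron were chosen by the differences of their short introns, so the median of 10.3 points for those is a description of that choice. The 600 longer introns tested in the 110 genes had a median of 2.65 points, with 34 called higher (5.67%). In genes with no intron in the set the 10919 tested introns had a median of 0.35 points. The gene groups also differed in intron length, with medians of 268 nt for the 600, 397 nt for the 3619 and 1213 nt for the 10919 introns. They were not compared at like length.

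The 18 cassette exons beside these introns that were called were all included less on knockdown. The 36 exons next to a called intron had a median difference in inclusion of -5.26 points, with 35 below 0 and 6 called lower. The 183 exons next to an uncalled intron of the set had a median of -2.90 points, with 12 called lower. For 6519 other exons the median was -0.55 points, with 90 called lower and 28 higher. Over all events 0.483% were called lower. The exon of 119 nt in Dpp7 was included at 88.4% and 78.3% in rescue, 69.9% and 48.5% in knockdown, and 88.0% and 91.3% in control libraries of the withoutEx3 line. It was included, in the withEx3 line, at 72.1% and 77.5% in rescue, 62.9% and 43.6% in knockdown, and 87.7% and 88.4% in control libraries, and knockdown minus control was -32.6 ± 5.01 points (adjusted p = 0.00805). The exon just upstream of the 85-nt Plxna3 intron fell by 18.1 ± 4.18 points (adjusted p = 0.0391). Exon inclusion and intron retention come from reads of the same libraries and transcripts, so they are not independent measurements.

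**Figure D4:**
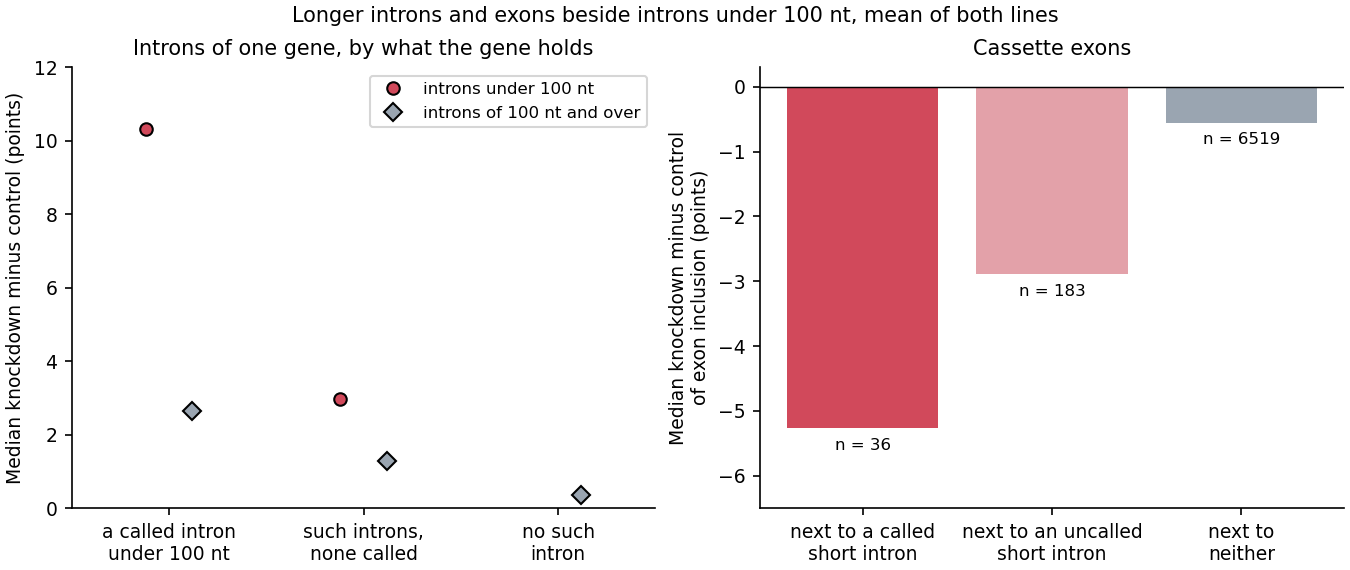
The left panel gives median knockdown minus control in percentage points (y axis) for introns under 100 nt (circles) and introns of 100 nt and over (diamonds) in genes grouped by whether they hold a called intron under 100 nt, uncalled ones only, or none. The right panel gives the same difference of inclusion for cassette exons by their neighbouring intron, with the number of exons under each bar. The medians are 2.96 and 1.29 points in genes whose short introns were not called, 10.3 and 2.65 points in the genes chosen by a called short intron, and -5.26 points for exons next to one. Introns of 100 nt and over had median lengths of 268, 397 and 1213 nt in the 3 groups of genes, in the order given.

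Transcript levels of the host genes centred near no change. In the authors' deposited expression table, 108 of the 110 host genes of called introns had a test, and their median log2 fold change of knockdown over control was 0.11 in the withoutEx3 and -0.08 in the withEx3 line. In each line 5 of the 108 (4.63%) passed the authors' FDR of 0.05, with 3 higher and 2 lower in the withoutEx3 and 2 higher and 3 lower in the withEx3 line. Among all 21541 genes tested there, 2.26% passed in the withoutEx3 and 3.68% in the withEx3 line.

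Retention over the set was lower in rescue than in knockdown in both lines, with no single intron called. Over the set, rescue minus knockdown had a median of -2.97 points in the withoutEx3 and -1.71 points in the withEx3 line. Introns of 100 to 199 nt had medians of -1.61 points in the withoutEx3 and -0.64 points in the withEx3 line. Those of 200 nt and over had -1.185 points in the withoutEx3 and 0 points in the withEx3 line. In limma, with 2 libraries a side, 0 of 1958 introns were called in each line (against 0.00345% of all events lower in the withoutEx3 line and 0 in the other). At an unadjusted p under 0.05, 511 introns were lower and 9 higher in rescue of the withoutEx3 line, and 238 lower and 17 higher in rescue of the withEx3 line. By that measure 6.86% of all events were lower and 1.71% higher in the withoutEx3 line, and 3.62% lower and 3.22% higher in the withEx3 line. Both rescue replicates lay below both knockdown replicates for 998 introns (51.0%) in the withoutEx3 line, against 26.8% of all events, and for 712 (36.4%) in the withEx3 line, against 16.5% of all events. The authors' deposited table of splicing changes also set rescue against knockdown. In the withoutEx3 line it called 86 of the 1958 introns lower and 1 higher in rescue, against 0.676% and 0.0690% of all events. In the withEx3 line it called 22 lower and 0 higher, against 0.166% and 0.0759% of all events.

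Rescue retention lay above control over much of the set in the withEx3 line. Both of its rescue library medians (5.36% and 5.88%) exceeded both control medians (2.94% and 4.08%), whereas those of the withoutEx3 line overlapped (3.33% and 5.19% in rescue, 2.99% and 4.27% in control). The median of rescue minus control was 0.52 points in the withoutEx3 and 1.95 points in the withEx3 line, with 0 introns called in either. At an unadjusted p under 0.05, 34 were higher and 11 lower in the withoutEx3 line, and 217 higher and 5 lower in the withEx3 line, while of all events 1.39% were higher and 4.19% lower in the withoutEx3 line, and 4.96% higher and 3.43% lower in the withEx3 line. The authors' deposited table called 8 introns higher and 1 lower in rescue than in control of the withoutEx3 line. Of all events, 0.0863% were called higher and 0.321% lower there. In the withEx3 line 32 introns were called higher and 0 lower, against 0.50% and 0.286% of all events. Rescue above control in the withEx3 line was not particular to introns under 100 nt. Introns of 100 to 199 nt had a median of 1.60 points there, with 77.9% above 0, against 81.5% of the set. Their median in the withoutEx3 line was 0.185 points. Introns of 200 nt and over had medians of -0.86 points in the withoutEx3 and 0.525 points in the withEx3 line.

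To set rescue against knockdown without choosing introns on the same knockdown libraries, introns were taken by the authors' knockdown call in the other line. For the 161 so chosen in the withoutEx3 line, the medians were 14.4% in rescue, 28.9% in knockdown and 9.83% in control, and rescue recovered 77.0% of the median knockdown difference. For the 146 in the withEx3 line the medians were 20.3% in rescue, 34.1% in knockdown and 9.26% in control, and rescue recovered 45.3%. By library, the medians of the withoutEx3 line were 11.4% and 17.2% in rescue, 22.2% and 35.6% in knockdown, and 7.83% and 11.7% in control. Those of the withEx3 line were 19.5% and 21.5% in rescue, 31.4% and 34.3% in knockdown, and 7.23% and 10.7% in control. Only 104 introns are common to both choices, so these levels were not compared between lines.

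Compared directly, rescue cells of the withoutEx3 line had lower retention than those of the withEx3 line, by a median of -1.34 points over the set. In limma 0 introns were called, with 120 lower and 14 higher at an unadjusted p under 0.05, against 4.78% of all events lower and 2.32% higher. For the difference between lines in the rescue effect the median was -1.38 points, with 0 called. At an unadjusted p under 0.05, 84 introns were lower and 21 higher, against 3.79% and 1.48% of all events. The shift was close to that of long introns, since introns of 200 nt and over had medians of -1.18 points between rescue groups and -1.21 points in the rescue effect. In the authors' deposited table, which gives withEx3 minus withoutEx3, 12 of the short introns were called higher in rescue and 0 lower. Of all events, 0.273% were called higher and 0.183% lower. The median line difference was 0.12 points in control and 0.055 points in knockdown cells, with 0 introns called in both. At an unadjusted p under 0.05, 17 introns were higher and 10 lower in control cells, against 2.71% and 1.53% of all events. In knockdown cells 53 were higher and 68 lower, against 3.66% and 2.72% of all events.

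Set against long introns of the same library, rescue took a middle place in both lines. The library median under 100 nt minus that of 200 nt and over was 0.66 and 0.84 points in rescue, 1.71 and 3.57 points in knockdown, and -0.83 and -0.62 points in control libraries of the withoutEx3 line. In the withEx3 line it was 0.88 and 1.00 points in rescue, 2.66 and 2.70 points in knockdown, and -0.58 and -0.65 points in control libraries. By these medians short introns were retained less than long ones in the 4 control libraries and more in the other 8. The conditions did not overlap across lines. The choice of introns enters the sign in control cells, and short and long introns were not compared under a like limit on the control mean. The 1530 introns with a control mean of at least 2% had control medians of 3.88% and 5.45% in the withoutEx3 line. In the withEx3 line they had 3.955% and 5.155%. Long introns, with no such limit on their control mean, had control medians of 3.82% and 4.89% in the withoutEx3 line. Those of the withEx3 line were 3.52% and 4.73%. A limit on the control mean raises the medians of the set it is put on, so this is not a like comparison. All 4 rescue values lay between 0.66 and 1.00 points, and the lower level of long introns in rescue cells of the withoutEx3 line (2.67% and 4.35%, against 4.48% and 4.88% in the withEx3 line) moved with the line difference. Its part in that difference was not tested.

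**Figure D5:**
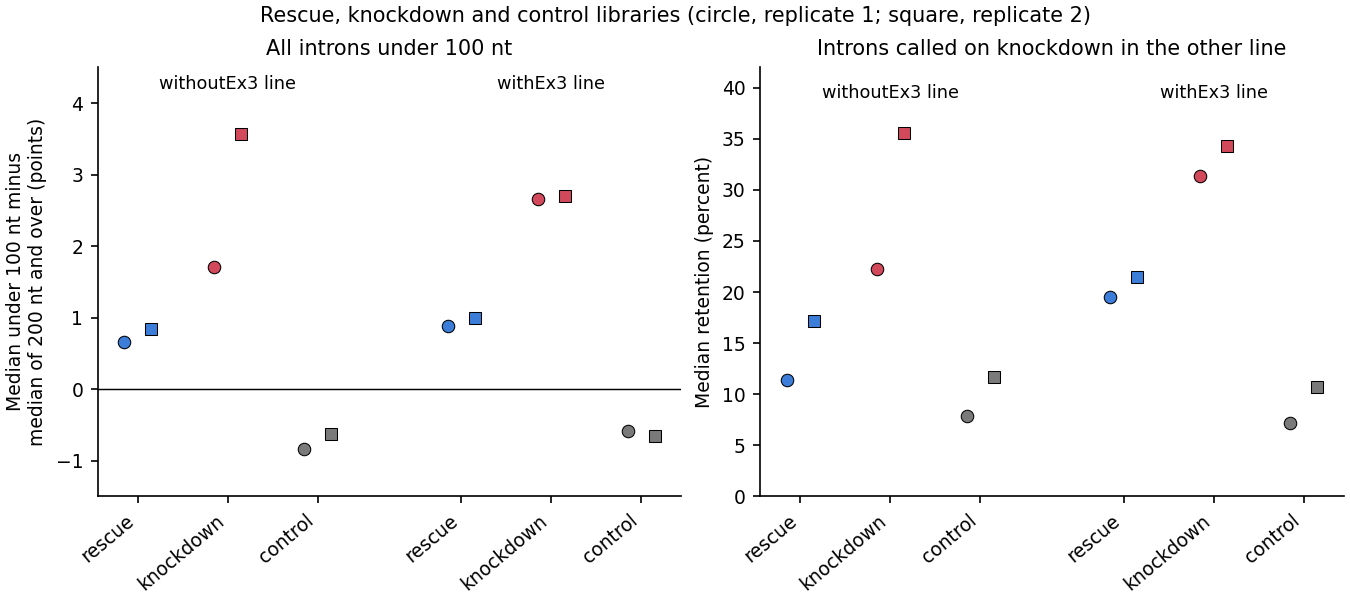
Rescue, knockdown and control libraries of each line, with circles for replicate 1 and squares for replicate 2. The left panel gives the library median of introns under 100 nt minus that of introns of 200 nt and over in percentage points, with rescue at 0.66 to 1.00 points between knockdown and control. The right panel gives the library median in percent of introns the authors called on knockdown in the other line (161 introns for the withoutEx3 and 146 for the withEx3 line, 104 of them in both).

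The authors' own calls of the knockdown overlapped the set in the same direction. Their deposited table listed 146 of the 1958 introns as higher in knockdown of the withoutEx3 line, against 1.01% of all events. In the withEx3 line it listed 161, against 1.37% of all events, and 104 were listed in both lines. It listed 0 as lower in either line, against 0.449% of all events in the withoutEx3 and 0.631% in the withEx3 line. Of the 149 introns called here, 144 were called by the authors in at least 1 line, which is 144 of 203 such introns in the authors' list. Both sets of calls come from the same libraries, so their overlap is not independent evidence of the change.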

How the data were processed

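PolyA RNA was sequenced from 2 replicates of each of 6 groups. The deposited inclusion table gives, per the file headers, event, position and length with a percent of inclusion or retention per library; mm9 is named in the submitters' processing notes. The sources used here name neither the program's version nor its coverage rule. A deposited table of the authors' splicing changes holds differences in percentage points and calls per comparison (a score column), with no statement of how calls were made. The deposited expression table holds 1 RPKM per group and, per the file headers, log2 fold changes with a p-value and an FDR. Salmon 0.14.1 and edgeR are named in the submitters' processing notes.

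Events with 12 values and a mean of 2% to 98% (28980, first splice sites left out) were fitted with limma 3.58.1 (R 4.3.3) on the percent scale, with 6 group means and a robust, intensity-dependent prior. Adjusted p-values are Benjamini-Hochberg over all 28980 events. Called means an adjusted p under 0.05 and 15 points. The pipeline was tested on simulated data. Labels call the replicates biological, and nothing more is said of separate cultures. The introns and the host and marker lists were chosen with earlier results of these data known, and 1 marker is not reported here. Named introns are the 12 largest called differences, genes with 3 or more called introns, introns called in a single line, called introns in list genes, the 5 highest and 5 lowest control means and the 3 shortest (with those tied at 66 nt). Sequences come from GENCODE M21 transcripts (GRCm38), matched by chromosome, strand and lengths of intron and flanking exons, without converting coordinates. Labels do not say what a replicate number stands for. Deviations of same-numbered libraries correlated at 0.149 to 0.310 within a line and 0.042 to 0.221 between lines over all events, and calls are from the fit without a block. Alternatives were other filters, scales, thresholds, variance priors and sample sets, a replicate block, and leaving out each library.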

Additional observations from a re-analysis of the deposited data

Results flagged for a closer look

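Among the 76 named introns, 3 moved in opposite directions in the lines in at least 1 comparison, with both replicates of each group on their own side. Each intron was screened in 3 comparisons, so some such cases arise by chance. The 74-nt intron of Ilvbl had rescue minus control of -3.47 points in the withoutEx3 and 19.77 points in the withEx3 line. Its rescue libraries held 13.9% and 17.8% in the withoutEx3 and 50.0% and 27.9% in the withEx3 line. A 69-nt intron of Scrib had rescue minus control of -2.91 points in the withoutEx3 and 12.12 points in the withEx3 line. Another 69-nt intron of Scrib, not among the 3, had 2.195 points in the withoutEx3 and 0.445 points in the withEx3 line. The 94-nt intron of Optn, the gene of an autophagy receptor, had rescue minus control of -4.86 points in the withoutEx3 and 7.75 points in the withEx3 line. Its rescue minus knockdown was -10.63 points in the withoutEx3 and 0.86 points in the withEx3 line. In a limma test added after these values were seen, the line difference (withoutEx3 minus withEx3) in rescue minus control was -23.2 ± 9.58 points for Ilvbl, -15.0 ± 7.31 points for Scrib and -12.6 ± 4.01 points for Optn (SE), with an adjusted p of 0.999 for each. For Optn the line difference in rescue minus knockdown had an adjusted p of 0.933, so a line difference was shown for none of the 3.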

How the results depend on the processing

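The count of 149 introns called higher on knockdown, as the mean of both lines, was 229 at 10 points, 346 on the adjusted p alone and 22 with no filter on the mean, and 62 to 199 without 1 library. Between 128 and 185 were called under the other settings, and all 22 and both sets of 62 were among the 149. The cause of these shifts was not tested. For the withoutEx3 line alone (2 introns) the count was 5 with no filter, 1 with the limits set on control libraries, 1 with values in at least 10 libraries, 17 with a constant prior variance, 0 with only the compared groups fitted, 19 with introns centred per library on those of 200 nt and over, and 0 to 105 without 1 library. For the withEx3 line (28 introns) it was 3, 43, 0 and 49 with no filter, the constant prior, the compared groups and the centring, and 0 to 54 without 1 library. Centring was chosen after seeing the data. With the replicate block 172 introns were called in the mean of both lines, 44 in the withoutEx3 and 94 in the withEx3 line. Rescue against knockdown had 3 calls in the withoutEx3 line with no filter and 3 with the constant prior, and 0 to 13 without 1 library (0 to 3 in the withEx3 line). The difference between lines in the knockdown effect had 1 call with no filter. With no filter the median difference was 0.86 points on knockdown in the mean of both lines, 0.84 in the withoutEx3 and 0.87 in the withEx3 line. Then rescue minus knockdown was -0.74 points in the withoutEx3 and -0.32 points in the withEx3 line, and rescue minus control 0.43 points in the withEx3 line. No other count or median moved past its limit, and no value of a named intron changed sign. Where 1 library remained in a group, its spread was taken to be like that of the others. Depth per event is unknown, so no counting error could be given.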
